A study of Homo sapiens with 8 samples.

Results

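The genes described here are long noncoding genes that carry small nucleolar RNAs (snoRNAs) in their introns. They were chosen by name: every row of the deposited count table whose identifier maps to a symbol made of SNHG (small nucleolar RNA host gene) and digits, together with GAS5 and ZFAS1. This gave 30 of 80311 rows, and all 30 passed the filter on low counts. The cells were U2OS, a human osteosarcoma line, in 2 derivatives. Cells of the U2OS-Flp-In-TREx derivative (Flp-In below) and of the U2OS AiD-DiVA AsiSI-ER derivative (AsiSI below) were each transfected with a control siRNA (siNC) or with an siRNA that targets MEPCE (siMePCE), whose product methylates the 5' end of 7SK RNA. Each of the 4 groups had 2 libraries of total RNA. Transfections were at 0 and 48 h and lysis was at 96 h. The AsiSI cells, in which AsiSI is a restriction enzyme fused to a hormone-binding domain, also received 300 nM 4-hydroxytamoxifen (4-OHT) for 4 h from 92 h to bring the enzyme to DNA, in siNC and siMePCE alike. No 4-OHT is stated for Flp-In, so cell line and 4-OHT cannot be told apart. Whether the 2 libraries of a group are separate cultures is not stated in the labels; the p-values therefore reflect only how far these libraries differ, which may be technical.

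A snoRNA host gene is transcribed by RNA polymerase II as a longer RNA, and the snoRNAs are cut out of its removed introns. Box C/D snoRNAs guide the 2'-O-methylation and box H/ACA snoRNAs the pseudouridylation of ribosomal and spliceosomal RNA, while scaRNAs do so in Cajal bodies. Many spliced host RNAs begin with a 5' terminal oligopyrimidine (TOP) tract, as ribosomal protein mRNAs do, code for no long protein and are degraded in the cytoplasm by nonsense-mediated decay.

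Library totals ran from 41431776 to 53695626 counts, and the 30 genes held 0.144% to 0.148% of them under siNC and 0.188% to 0.248% under siMePCE. Mitochondrial genes took 5.23% to 5.91% of counts under siNC and 8.24% to 10.6% under siMePCE; their part in the results below was not tested. The targeted gene MEPCE had 39.9 and 40.1 CPM (counts scaled to a common library size) in Flp-In siNC and 5.35 and 4.84 CPM after siMePCE there. Its AsiSI values were 29.3 and 29.3 CPM under siNC and 3.65 and 2.30 CPM under siMePCE. Its log2 fold changes were -2.97 and -3.30. The osteoblast transcription factor RUNX2 was at 30.1 to 44.6 CPM and the matrix protein gene SPARC at 255 to 493 CPM, while SP7, ALPL, BGLAP, IBSP and COL1A2 were at 1.29 CPM or less. The 8 osteoblast marker rows summed to 315 to 639 CPM, and markers of leukocytes, epithelium and hepatocytes to 6.71 to 12.5 CPM. The collagen gene COL1A1 fell in both lines (log2 fold changes -1.39 and -0.37), and its part in the results was not tested.

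Reads were counted over whole gene intervals, introns included, so the reads of an intronic snoRNA are part of its host's count. In 19 hosts, 99 rows of small RNAs lie inside the interval, 72 of them in SNHG14. GAS5, SNHG1, SNHG5, SNHG6, SNHG7, SNHG8, SNHG9, SNHG15, SNHG20, SNHG21 and SNHG29 have no small RNA row inside their interval. Their snoRNAs were not analysed here. Other hosts are covered only in part, as SNHG16 is, where SNORD1B has a row but SNORD1A and SNORD1C have none. Counts left after small RNA rows are subtracted can therefore still hold snoRNA reads. Larger genes overlap as well. In 23 hosts the whole count of an overlapping row was at least 0.5 times the host's, and in 14 it was above the host's. Some of the common stretches are short, and how many of these reads lie in them is not known. Reads in a common stretch cannot be assigned to either gene. Where an overlapping row is not nested, the ratios given below compare whole counts. Per kilobase of interval, SNHG3 was the highest of the 30 (67.1 CPM per kb over all libraries), followed by SNHG1 (23.6) and SNHG4 (9.58).

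The summed level of the 30 host genes was higher under siMePCE than under siNC in both lines. The sum was 1429 and 1447 CPM in Flp-In siNC and 2530.1 and 2191 CPM in Flp-In siMePCE. In AsiSI it was 1507 and 1512 CPM under siNC and 2058 and 1859 CPM under siMePCE. Without SNHG3, the most abundant member, the same sums were 1287 and 1278 against 2010.5 and 1748 CPM in Flp-In, and 1308 and 1263 against 1606 and 1395 CPM in AsiSI. Groups did not overlap in either line, with or without SNHG3.

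Gene by gene, 15 hosts rose and 3 fell in Flp-In, while 12 did not pass the test (edgeR quasi-likelihood test, adjusted p under 0.05). Of all 43321 genes tested, 40.9% were called in Flp-In, 18.1% higher and 22.8% lower. Among the 16950 genes with a mean of at least 5 CPM, as 25 of the hosts have, 23.9% were called higher and 38.5% lower, and among the 2702 long noncoding genes of that level 25.8% and 37%. The median log2 fold change of the hosts was 0.42, against 0.03 over all genes and -0.11 over genes of at least 5 CPM. In AsiSI, 7 hosts rose and 3 fell, where 38.2% of all genes were called, 16.8% higher and 21.4% lower. Their median was 0.15, against 0.04 over all genes and -0.17 over genes of at least 5 CPM. At that level 19.7% of all genes and 27.3% of long noncoding genes were called higher in AsiSI, and 40.8% and 34% lower. Rising hosts were SNHG1, SNHG3, SNHG4, SNHG5, SNHG8 and SNHG29 in both lines, and falling hosts in both were SNHG22 and SNHG31. The log2 fold change was positive in 25 of the 30 hosts in Flp-In and in 20 in AsiSI, and it was smaller in AsiSI than in Flp-In in 26.

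**Figure D1:**
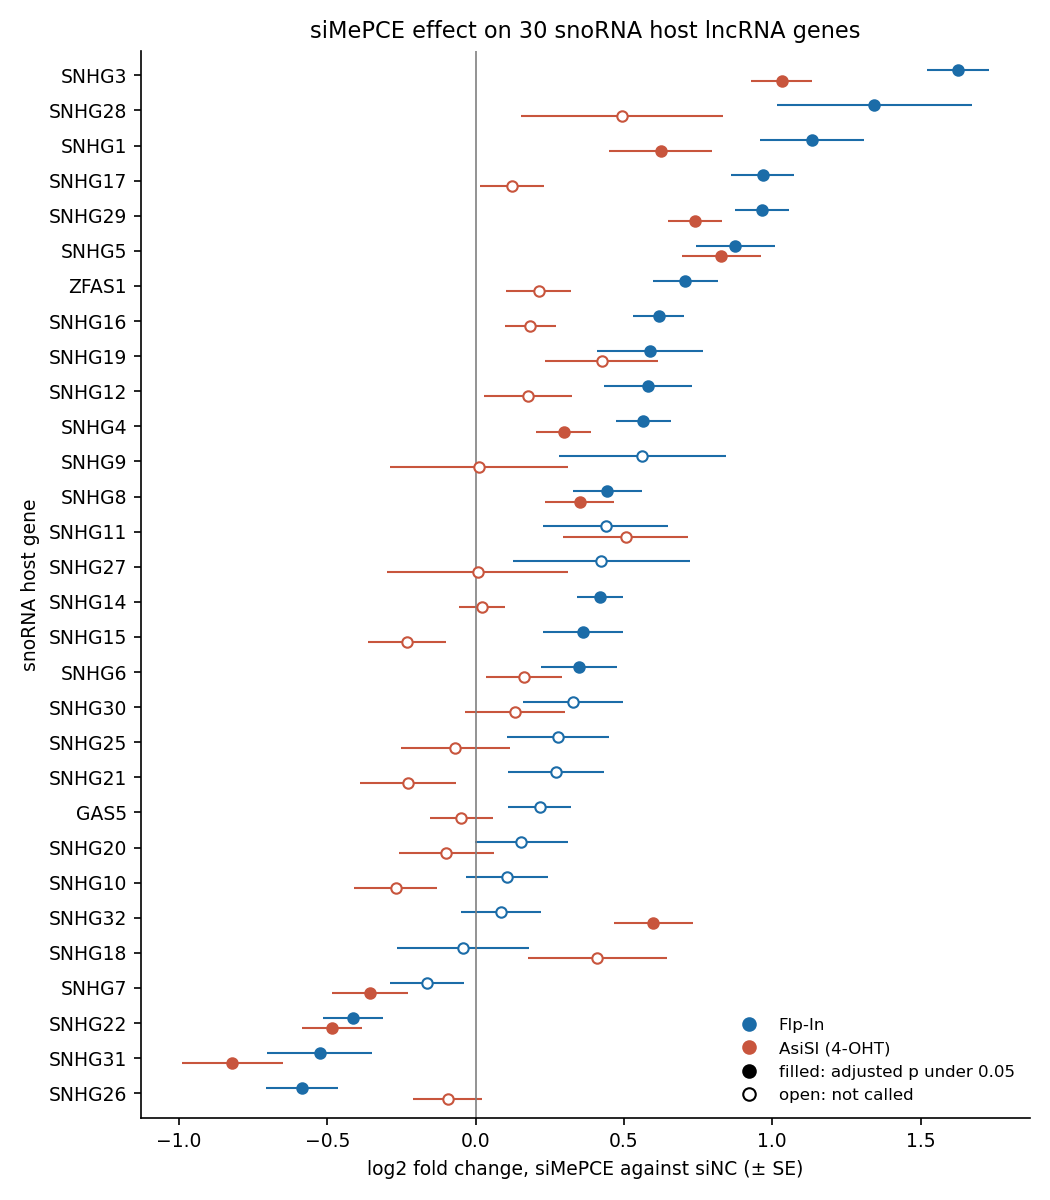
Log2 fold change (siMePCE against siNC, ± SE) of the 30 host genes, ordered by the Flp-In value, in Flp-In (blue) and AsiSI with 4-OHT (red); filled points passed the test. SNHG3 leads in both lines at 1.63 and 1.03, and most red points lie to the left of the blue point of the same gene.

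Among the hosts of box C/D snoRNAs, SNHG1, SNHG29 and SNHG5 rose in both lines. SNHG1, which carries a cluster of SNORD genes on chromosome 11 (62619305 to 62623916, hg19), had 82.9 and 73.9 CPM in Flp-In siNC and 191 and 153 CPM after siMePCE there. Its AsiSI values were 84.5 and 61.3 CPM under siNC and 130 and 94.8 CPM under siMePCE. Every knockdown library was above the control libraries of its line, although AsiSI replicates differed widely. SNHG1 was 2.20-fold higher in Flp-In (log2 1.13, SE 0.18, edgeR adjusted p = 0.000307) and 1.54-fold higher in AsiSI (log2 0.62, SE 0.17, adjusted p = 0.0152). The AsiSI call was lost without siNC replicate 2 (adjusted p = 0.0792) or siMePCE replicate 1 (adjusted p = 0.0913). On the other strand, STX5-DT overlaps SNHG1 with 25.4 times its count. The small nuclear RNA row RNU2-2P (62609091 to 62609281) lies within the STX5-DT interval but outside SNHG1. In Flp-In siNC, RNU2-2P had 63703 and 81290 counts and STX5-DT 67916 and 85102, so most of the STX5-DT count can come from outside SNHG1.

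SNHG29, host of SNORD49A, SNORD49B and SNORD65, had 137 and 137 CPM in Flp-In siNC, 289.6 and 245 CPM in Flp-In siMePCE, 128 and 136 CPM in AsiSI siNC, and 237 and 206 CPM in AsiSI siMePCE. All 4 knockdown libraries were above all 4 controls. The fold was 1.95 in Flp-In (log2 0.97, SE 0.09, adjusted p = 1.60e-08) and 1.67 in AsiSI (log2 0.74, SE 0.09, adjusted p = 7.81e-07). LRRC75A, which overlaps it on the other strand with 0.558 of its count, rose alongside (log2 fold changes 0.90 and 0.76).

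SNHG5, host of SNORD50A and SNORD50B, had 18.3 and 18.3 CPM in Flp-In siNC and 35.2 and 31.95 CPM in Flp-In siMePCE. Its AsiSI values were 20.3 and 15.65 CPM under siNC and 35.3 and 28.4 CPM under siMePCE. Control and knockdown libraries again did not overlap. The folds were 1.84 (log2 0.88, SE 0.13, adjusted p = 1.32e-05) and 1.77 (log2 0.83, SE 0.13, adjusted p = 2.72e-05). These were the closest pair of folds among the hosts that rose in both lines, with a difference of -0.05 (SE 0.19) on the log2 scale. ENSG00000271793, on the same strand, spans 86214494 to 86388451 and covers most of the SNHG5 interval (86354087 to 86388661, hg19). Its whole count was 7.90 times that of SNHG5. It had 9344 and 8701 counts against 10811 and 9861 in Flp-In, and 10044 and 10011 against 8123 and 7826 in AsiSI. Reads in the common stretch cannot be assigned to either gene.

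GAS5, named for its rise in growth arrest and host of a series of SNORD genes, did not pass the test in either line. It had 101 and 96.3 CPM in Flp-In siNC, 123 and 107 CPM in Flp-In siMePCE, 88.7 and 78.6 CPM in AsiSI siNC, and 91.2 and 70.7 CPM in AsiSI siMePCE. The Flp-In groups did not overlap and the AsiSI groups did. The log2 fold changes were 0.22 (SE 0.11, adjusted p = 0.111) and -0.05 (SE 0.11, adjusted p = 0.764).

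ZFAS1, named as the antisense RNA at the ZNFX1 promoter, rose in Flp-In. Its levels were 95.3 and 90.7 CPM in Flp-In siNC, 164 and 139.95 CPM in Flp-In siMePCE, 98.8 and 87.2 CPM in AsiSI siNC, and 122 and 93.7 CPM in AsiSI siMePCE. In AsiSI, the lower knockdown library lay below the higher control. The fold was 1.63 in Flp-In (log2 0.71, SE 0.11, adjusted p = 1.65e-05), and AsiSI gave a log2 fold change of 0.21 (SE 0.11, adjusted p = 0.131). The difference between the lines was -0.50 (SE 0.15) and did not pass (adjusted p = 0.0711), but it was called under 7 of 17 alternatives, among them DESeq2 (0.0436), no filter (0.014) and the replicate block (0.00493). ZNFX1 itself was not called in either line (log2 fold changes 0.06 and -0.05). ZFAS1 holds 3 related box C/D snoRNAs whose rows together made up 2.18% to 3.39% of its count. Their sequences are shown because all 3 are read from the same host; the first capitals mark the C box and the second the D box (T stands for U).
SNORD12: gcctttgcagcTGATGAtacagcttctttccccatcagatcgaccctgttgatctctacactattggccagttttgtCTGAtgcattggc
SNORD12B: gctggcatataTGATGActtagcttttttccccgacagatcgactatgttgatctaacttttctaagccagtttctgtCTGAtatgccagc
SNORD12C: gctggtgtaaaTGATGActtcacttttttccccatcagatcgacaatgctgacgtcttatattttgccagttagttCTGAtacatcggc
They lie on the plus strand of chromosome 20 (hg19) at 47897220 to 47897309, 47896856 to 47896946 and 47895477 to 47895565, and share 69.8% to 74.2% of aligned positions. SNORD12B (log2 1.2, adjusted p = 0.0108) and SNORD12C (log2 1.41, adjusted p = 0.0128) rose in Flp-In, and SNORD12 had a log2 fold change of 0.74 (adjusted p = 0.113). These 3 rows were chosen after their values were seen and were all under 2 CPM.

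SNHG16, host of SNORD1A, SNORD1B and SNORD1C, and SNHG14, host of the SNORD115 and SNORD116 clusters of the Prader-Willi region, ranked next after SNHG3 in CPM. SNHG16 had 213 and 218 CPM in Flp-In siNC, 356 and 305 CPM in Flp-In siMePCE, 205 and 224 CPM in AsiSI siNC, and 255 and 232 CPM in AsiSI siMePCE. It was 1.53-fold higher in Flp-In (log2 0.62, SE 0.09, adjusted p = 4.87e-06) and had a log2 fold change of 0.18 in AsiSI (SE 0.09, adjusted p = 0.098). Knockdown libraries were above controls in both lines. The interval counted for SNHG16 spans 157194 bases, 20.7 times its span in GENCODE 29, and a row on the other strand inside it (ENSG00000284526) held 48.9% of its count. Of the 30 hosts, 12 have an interval over 2 times their GENCODE 29 span. Among them are SNHG6 (6.48 times), SNHG19 (8.13), SNHG26 (8.09), GAS5 (3.52), SNHG32 (3.43) and SNHG25 (3.16).

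SNHG14 had 209 and 193 CPM in Flp-In siNC, 269.96 and 267 CPM in Flp-In siMePCE, 265 and 249 CPM in AsiSI siNC, and 263 and 258 CPM in AsiSI siMePCE. The 2 Flp-In controls were below all 6 other libraries, and the AsiSI groups overlapped. The log2 fold changes were 0.42 (SE 0.08, adjusted p = 0.000147) in Flp-In and 0.02 (SE 0.08, adjusted p = 0.856) in AsiSI. UBE3A, the ubiquitin ligase gene that SNHG14 runs antisense to, had 0.856 of its count and moved the same way (log2 0.61, adjusted p = 1.53e-06, and 0.09, adjusted p = 0.395), so its reads and those of SNHG14 cannot be told apart where they overlap. The 72 snoRNA rows inside SNHG14 made up only 0.201% to 0.653% of its count.

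**Figure D2:**
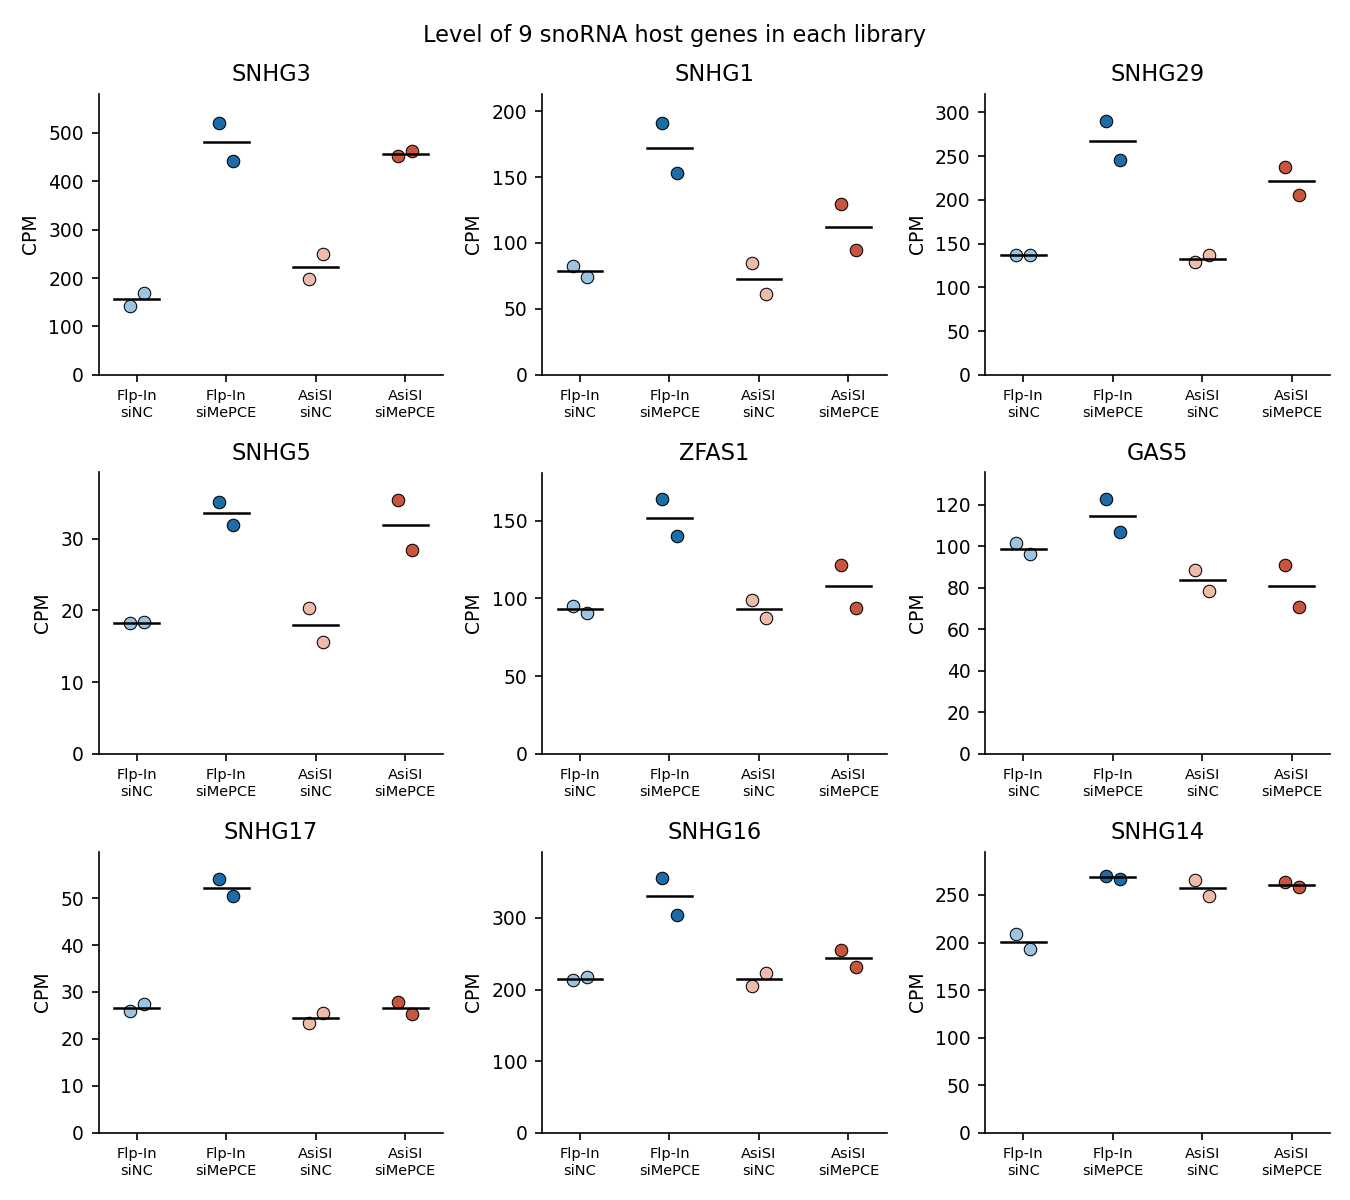
Level (CPM, axis from 0) of 9 host genes in each of the 8 libraries; points are libraries and bars are means of 2. SNHG29 and SNHG5 are higher in all 4 knockdown libraries, SNHG17 only in the 2 Flp-In knockdown libraries, and SNHG14 is low only in the 2 Flp-In controls.

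Smaller box C/D hosts varied more. SNHG19 (SNORD60) had 12.5 and 12.3 CPM in Flp-In siNC and 19.99 and 17.2 CPM in Flp-In siMePCE, a log2 fold change of 0.59 (SE 0.18, adjusted p = 0.0116). In AsiSI its 7.29 and 5.89 CPM under siNC overlapped the 11.1 and 6.62 CPM under siMePCE (log2 0.42, SE 0.19, adjusted p = 0.0821). RAB26, on the other strand, overlaps SNHG19 from 2201104 to 2204166 (hg19), with a whole count 0.501 times that of SNHG19. RAB26 had 219 and 252 counts against 489 and 428 in Flp-In, and 121 and 151 against 293 and 206 in AsiSI. Reads common to SNHG19 and RAB26 cannot be assigned to either gene. SNHG25 (SNORD104), at 5.001 to 14.3 CPM, was not called in either line. SNHG26 (SNORD93) fell in Flp-In, from 21.45 and 20.3 CPM to 14.6 and 13.2 CPM, which was 1.501-fold (log2 -0.59, SE 0.12, adjusted p = 0.000442). Its AsiSI values were 33.8 and 30.2 CPM against 31.99 and 27.97 CPM (log2 -0.09, adjusted p = 0.564), and the difference between the lines did not pass (adjusted p = 0.104). HYCC1, which overlaps SNHG26 with 3.24 times its count, fell in both lines (log2 -0.31 and -0.52). SNHG6, the host of SNORD87, rose in Flp-In by 0.35 on the log2 scale (adjusted p = 0.0335).

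SNHG32, host of SNORD48 and SNORD52 in the major histocompatibility region of chromosome 6, gave another result once the rows inside its interval were subtracted. As deposited, it had 31.1 and 41.3 CPM in Flp-In siNC, 38.9 and 37.9 CPM in Flp-In siMePCE, 41.5 and 53.6 CPM in AsiSI siNC, and 79.9 and 64.3 CPM in AsiSI siMePCE. On these counts it rose in AsiSI (1.51-fold, log2 0.60, SE 0.13, adjusted p = 0.00102) and not in Flp-In (log2 0.09, SE 0.14, adjusted p = 0.645). The heat shock gene HSPA1B lies inside this interval on the same strand and held 56.2% of its count. HSPA1B had 16.3 and 28.05 CPM in Flp-In siNC, 11.2 and 11.2 CPM in Flp-In siMePCE, 21.5 and 35.3 CPM in AsiSI siNC, and 55.4 and 40.8 CPM in AsiSI siMePCE; its near-identical copy HSPA1A makes these counts uncertain. After all nested rows were subtracted, SNHG32 had 13.99 and 11.9 CPM in Flp-In siNC, 26.9 and 25.7 CPM in Flp-In siMePCE, 18.7 and 17.1 CPM in AsiSI siNC, and 23.5 and 22.4 CPM in AsiSI siMePCE. The remaining count rose in both lines, by 1.02 (SE 0.12, adjusted p = 6.46e-07) and 0.36 (SE 0.12, adjusted p = 0.0241), and the difference between the lines turned from 0.51 (adjusted p = 0.138) to -0.67 (adjusted p = 0.0278). This subtraction was added after the data were seen.

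Among hosts of box H/ACA snoRNAs, SNHG3 had the largest rise of all 30 genes in AsiSI and in Flp-In. It lies at 28832492 to 28837404 on the plus strand of chromosome 1 (hg19), inside the row of RCC1, the exchange factor of the Ran GTPase. SNHG3 had 142 and 169.9 CPM in Flp-In siNC and 519.7 and 443 CPM after siMePCE there. Its AsiSI values were 199 and 249 CPM under siNC and 452 and 464 CPM under siMePCE. All knockdown libraries were above all controls. The folds were 3.09 in Flp-In (log2 1.63, SE 0.11, adjusted p = 6.74e-11) and 2.04 in AsiSI (log2 1.03, SE 0.10, adjusted p = 5.16e-08). The snoRNA in the SNHG3 interval with a row of its own, SNORA73B (also known as U17b), held 33.1% to 52.1% of the row in the 8 libraries. SNORA73B is known for a role in the cleavage of the ribosomal RNA precursor. It is shown because it held the largest share of any H/ACA row in a named host; capitals mark the ACA box near the 3' end.
SNORA73B: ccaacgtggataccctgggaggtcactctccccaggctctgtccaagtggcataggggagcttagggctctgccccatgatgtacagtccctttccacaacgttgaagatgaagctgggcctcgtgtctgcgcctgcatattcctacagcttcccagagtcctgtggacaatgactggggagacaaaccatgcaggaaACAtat
It spans 28835071 to 28835274 of chromosome 1 (hg19, plus strand). SNORA73B had 47.0 and 72.2 CPM in Flp-In siNC, 199 and 147 CPM in Flp-In siMePCE, 91.5 and 129.6 CPM in AsiSI siNC, and 162 and 170.5 CPM in AsiSI siMePCE. It rose in Flp-In (log2 1.54, SE 0.27, adjusted p = 0.00388) and did not pass in AsiSI (log2 0.59, SE 0.26, adjusted p = 0.128). Without SNORA73B, SNHG3 had 94.8 and 97.7 against 320 and 296 CPM in Flp-In and 107 and 119 against 289 and 293 CPM in AsiSI, log2 fold changes of 1.68 and 1.36. The difference between the lines, -0.59 for the whole row (adjusted p = 0.0197), was then -0.32 and no longer passed (adjusted p = 0.130).

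SNHG17 carries the SNORA71 family and was the host whose response differed most clearly between the lines. It had 25.99 and 27.4 CPM in Flp-In siNC, 53.96 and 50.4 CPM in Flp-In siMePCE, 23.5 and 25.4 CPM in AsiSI siNC, and 27.9 and 25.4 CPM in AsiSI siMePCE. Only the Flp-In knockdown libraries stood apart. It was 1.96-fold higher in Flp-In (log2 0.97, SE 0.11, adjusted p = 1.48e-07) and had a log2 fold change of 0.12 in AsiSI (SE 0.11, adjusted p = 0.392). The difference was -0.84 (SE 0.15, adjusted p = 0.00157), and it was called under all 17 alternatives. Apart from its own snoRNAs, no row overlaps SNHG17. The family is shown to compare its copies, as GENCODE 29 gives them; capitals mark an ACA box where it was found 2 bases from the 3' end.
SNORA71A: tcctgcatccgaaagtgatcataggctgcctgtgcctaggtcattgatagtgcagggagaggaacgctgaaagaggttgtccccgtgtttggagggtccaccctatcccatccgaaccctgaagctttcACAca
SNORA71C: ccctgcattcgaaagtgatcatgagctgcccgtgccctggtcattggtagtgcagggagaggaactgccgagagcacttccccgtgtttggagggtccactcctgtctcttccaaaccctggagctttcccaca
SNORA71D: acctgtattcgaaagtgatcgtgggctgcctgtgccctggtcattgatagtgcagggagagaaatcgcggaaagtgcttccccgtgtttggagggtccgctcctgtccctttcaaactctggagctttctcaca
These copies lie on the minus strand of chromosome 20 (hg19) at 37055952 to 37056085, 37058313 to 37058446 and 37062508 to 37062641, and are 83.1% to 86.6% identical in pairs, so reads could have been split between them. The 4 SNORA71 rows made up 12.1% to 29.04% of SNHG17. SNORA71B had 1.38 and 2.23 CPM in Flp-In siNC, 6.53 and 5.19 CPM in Flp-In siMePCE, 2.17 and 2.17 CPM in AsiSI siNC, and 2.61 and 2.90 CPM in AsiSI siMePCE. SNORA71B rose in Flp-In (log2 1.70, SE 0.25, adjusted p = 6.84e-06) and differed between the lines like its host (-1.35, SE 0.35, adjusted p = 0.0255). SNORA71A (log2 1.51) and SNORA71C (log2 1.51) also rose in Flp-In. With the snoRNA rows subtracted, SNHG17 still rose in Flp-In (log2 0.80, SE 0.11) with a difference of -0.74 (adjusted p = 0.00814).

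SNHG4, host of SNORA74A on chromosome 5, rose in both lines. It had 98.7 and 100.3 CPM in Flp-In siNC, 159 and 135 CPM in Flp-In siMePCE, 77.0 and 73.0 CPM in AsiSI siNC, and 97.2 and 87.1 CPM in AsiSI siMePCE. Knockdown libraries were above the controls of their line. The log2 fold changes were 0.57 (SE 0.09, adjusted p = 3.20e-05) and 0.30 (SE 0.09, adjusted p = 0.0142). The AsiSI call was lost without siNC replicate 2 (adjusted p = 0.0602) or siMePCE replicate 1 (adjusted p = 0.177). SNORA74A held 13.2% of the SNHG4 count, the largest share after SNORA73B among H/ACA rows of named hosts. SNORA74A rose in Flp-In, from 8.32 and 10.5 CPM to 25.9 and 16.8 CPM (log2 1.18, SE 0.19, adjusted p = 2.44e-05). In AsiSI it had 10.2 and 9.64 CPM against 15.6 and 11.3 CPM (log2 0.44, adjusted p = 0.0672). MATR3, a nuclear matrix protein gene, overlaps SNHG4 on the same strand with 4.03 times its count and rose in Flp-In by 0.42.

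**Figure D3:**
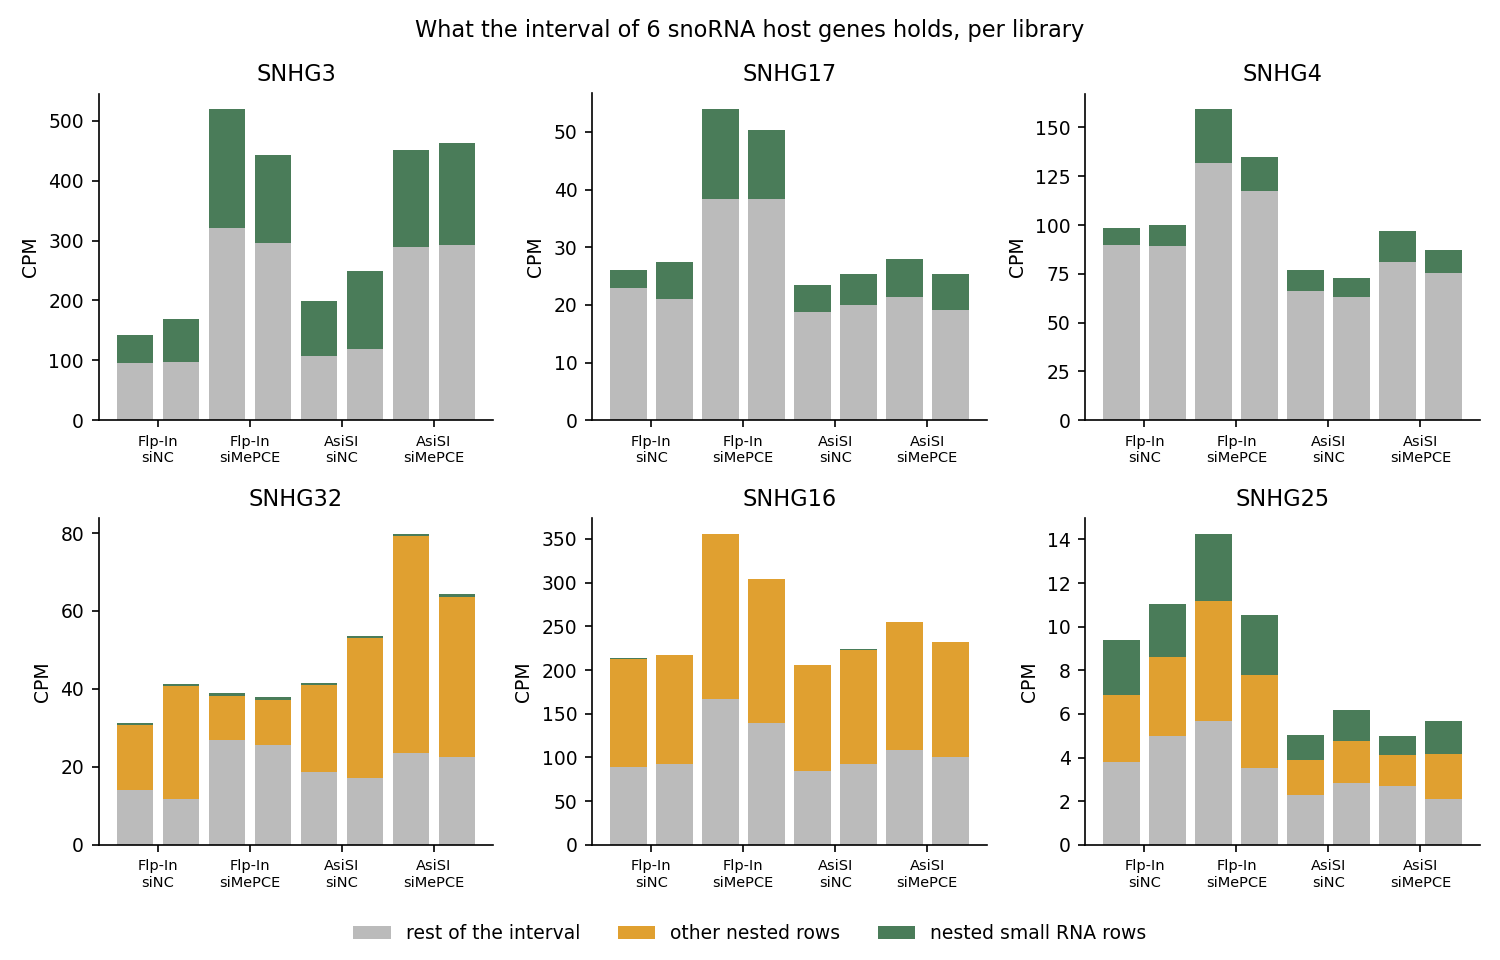
CPM of 6 host rows in each library (2 bars a group), split into nested small RNA rows (green), other nested rows (orange) and the rest of the interval (grey); axes start at 0. In SNHG3 and SNHG17 the grey part moves with the green part, whereas in SNHG32 the grey part is higher under siMePCE in both lines and the orange part, mainly HSPA1B, is lower in Flp-In and higher in AsiSI.

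Among the other H/ACA hosts, SNHG8 (SNORA24) rose in both lines by 0.44 and 0.35 on the log2 scale (adjusted p = 0.00361 and 0.0216). Its levels were 28.5 and 31.1 against 43.2 and 37.9 CPM in Flp-In and 21.1 and 20.8 against 29.2 and 24.1 CPM in AsiSI. The SNHG8 interval is 6.15 times its span in GENCODE 29. PRSS12, on the other strand, overlaps it from 119201193 to 119206471 (hg19), with a whole count 0.587 times that of SNHG8. PRSS12 had 582 and 646 counts against 1046 and 981 in Flp-In, and 651 and 711 against 1002 and 812 in AsiSI. Reads common to SNHG8 and PRSS12 cannot be assigned to either gene. SNHG15 (SNORA9), the member with no overlapping row, had 18.6 and 15.6 CPM in Flp-In siNC, 23.4 and 20.5 CPM in Flp-In siMePCE, 27.5 and 24.6 CPM in AsiSI siNC, and 24.6 and 19.7 CPM in AsiSI siMePCE. It rose in Flp-In (log2 0.36, SE 0.13, adjusted p = 0.0346) and had a log2 fold change of -0.23 in AsiSI (adjusted p = 0.180). SNHG15 was the sole host among the 15 that rose in Flp-In with a value below 0 in AsiSI. SNHG7 (SNORA17A and SNORA17B) fell in AsiSI, from 32.5 and 34.7 CPM to 26.8 and 25.7 CPM (log2 -0.36, SE 0.13, adjusted p = 0.0299). In Flp-In its 41.2 and 45.6 CPM under siNC overlapped the 45.2 and 32.2 CPM under siMePCE (log2 -0.16, adjusted p = 0.308). DIPK1B, on the other strand, overlaps SNHG7 from 139615818 to 139619194 (hg19), with a whole count 0.359 times that of SNHG7. DIPK1B had 973 and 938 counts against 397 and 331 in Flp-In, and 738 and 735 against 325 and 299 in AsiSI. Reads in the stretch common to SNHG7 and DIPK1B cannot be assigned to either gene.

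SNHG22, host of the Cajal body RNA SCARNA17 on chromosome 18, fell in both lines. It had 42.6 and 47.2 CPM in Flp-In siNC, 34.7 and 32.7 CPM in Flp-In siMePCE, 40.3 and 41.7 CPM in AsiSI siNC, and 30.3 and 28.3 CPM in AsiSI siMePCE. All 4 knockdown libraries were below all 4 controls. The folds were 1.33 (log2 -0.41, SE 0.10, adjusted p = 0.00216) and 1.40 (log2 -0.48, SE 0.10, adjusted p = 0.000563). SCARNA17, under 2 CPM in every library, moved the other way in Flp-In (log2 1.52, SE 0.47, adjusted p = 0.0121) and had a log2 fold change of -0.06 in AsiSI. Of the rows that overlap SNHG22 (from 47340314, hg19), ACAA2 fell in both lines (log2 -0.73 and -0.55), but it ends at 47340323. MYO5B was not called in either line. ENSG00000266997, on the other strand, spans 47322163 to 47363993. Its whole count was 73.6% to 83.2% of that of SNHG22 in the 8 libraries. Reads in the stretch that it shares with SNHG22 cannot be assigned to either row. In SNHG10, the host of SCARNA13, which was not called in either line, SCARNA13 held 32.8% to 54.3% of the row; both were named after their values were seen.

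SNHG31 fell in both lines as well. It had 5.43 and 5.24 CPM in Flp-In siNC, 3.63 and 3.78 CPM in Flp-In siMePCE, 9.44 and 8.86 CPM in AsiSI siNC, and 4.91 and 5.45 CPM in AsiSI siMePCE. The groups did not overlap within either line. The folds were 1.44 (log2 -0.53, SE 0.18, adjusted p = 0.0209) and 1.77 (log2 -0.82, SE 0.17, adjusted p = 0.000490). The Flp-In call was lost whenever any 1 Flp-In library was left out (adjusted p = 0.0648 to 0.109). BARD1, the partner of BRCA1, overlaps it on the other strand with 9.77 times its count and was not called in either line. BARD1 ends at 215674407, just past the start of SNHG31 at 215674194 (hg19). ABCA12, on the other strand, overlaps SNHG31 from 215796266 to 215828346. Its whole count was 1.01 times that of SNHG31. ABCA12 had 175 and 182 counts against 158 and 162 in Flp-In, and 482 and 433 against 313 and 305 in AsiSI. Reads in the common stretch cannot be assigned to either gene.

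Leaving out 1 Flp-In library also ended the Flp-In call of SNHG6, SNHG8, SNHG12, SNHG15, SNHG19, SNHG22 and SNHG28, and leaving out 1 AsiSI library ended the AsiSI call of SNHG8 and SNHG7. Over all alternatives, 10 of the 18 Flp-In calls and 6 of the 10 AsiSI calls were kept throughout. Those kept in Flp-In were SNHG1, SNHG3, SNHG4, SNHG5, SNHG14, SNHG16, SNHG17, SNHG29 and ZFAS1, which rose, and SNHG26, which fell. Those kept in AsiSI were SNHG3, SNHG5, SNHG29 and SNHG32, which rose, and SNHG22 and SNHG31, which fell. SNHG28 and the other 4 hosts under 5 CPM (SNHG9, SNHG11, SNHG18 and SNHG27) ran from 0.667 to 5.56 CPM per library.

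The difference of the siMePCE effect, AsiSI minus Flp-In, was called in 4 hosts, all with a smaller response in AsiSI: SNHG17 (-0.84), SNHG3 (-0.59), SNHG16 (-0.43, SE 0.12, adjusted p = 0.0454) and SNHG14 (-0.40, SE 0.11, adjusted p = 0.0401). Over all genes 4.41% were called, 2.6% higher and 1.81% lower, and among genes of at least 5 CPM 4.62% and 4.14%, and among long noncoding genes of that level 8.59% and 2.96%. By edgeR with the settings used throughout, 0 hosts were called with a larger response in AsiSI, although edgeR called SNHG32 with no filter (adjusted p = 0.0264) or without AsiSI siNC replicate 2 (0.0298) and SNHG26 with the replicate block (0.044). At an unadjusted p under 0.05, 2 were higher (SNHG26 and SNHG32) and 7 lower, and DESeq2 called 1 higher and 6 lower. The median of the hosts was -0.28, against -0.02 over all genes and -0.07 over genes of at least 5 CPM. Except SNHG17, the called hosts lost the call when 1 of several libraries was left out: SNHG3 without 4 of the 8 (adjusted p of up to 0.147), SNHG16 without 5 (up to 0.254) and SNHG14 without 7 (up to 0.230).

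Under siNC, AsiSI and Flp-In differed in 12 hosts, 6 higher and 6 lower in AsiSI, where 29.6% of all genes were called, 14.4% higher and 15.2% lower. Higher in AsiSI were SNHG31 (1.71-fold), SNHG26 (1.53-fold), SNHG15 (1.53-fold), SNHG3 (1.44-fold), SNHG32 (1.31-fold) and SNHG14 (1.28-fold). Lower were SNHG19 (1.88-fold), SNHG18 (1.87-fold), SNHG25 (1.83-fold), SNHG8 (1.42-fold), SNHG4 (1.33-fold) and SNHG7 (1.29-fold). SNHG7 lost this call without any 1 of the 4 siNC libraries (adjusted p = 0.0549 to 0.262), and SNHG32 without replicate 1 of Flp-In siNC (0.347) or replicate 2 of AsiSI siNC (0.305). SNHG18 (0.0735) and SNHG8 (0.0519) lost it without Flp-In siNC replicate 2. With SCARNA13 subtracted, SNHG10 went from a log2 difference of -0.04 to -0.51 and was called lower in AsiSI (adjusted p = 0.0177). The abundant hosts SNHG16, SNHG29, SNHG1 and ZFAS1 had log2 differences of -0.01, -0.05, -0.11 and 0.00, none called. The siNC libraries enter this comparison and both knockdown contrasts, so these values are not independent of the folds given above.

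Among the small RNA rows inside the hosts, 19 of 99 passed the filter, and none of the 72 in SNHG14 did. SNORA60 in SNHG11, with 0 counts in both Flp-In controls and 15 and 21 in Flp-In siMePCE, passed it through the libraries where it is high, so its call in Flp-In is no finding. Of the other 18, 9 rose in Flp-In, where 18.1% of all genes were called higher. Besides those described above, SNORA74D in SNHG4 was among them. In AsiSI 1 fell (SCARNA13, log2 -0.58, adjusted p = 0.025), where 21.4% of all genes were called lower. SNORA71B was the sole small RNA row with a called difference between the lines. These rows are short and mostly low, and their reads may come from the mature snoRNA, its precursor or the host's intron, which cannot be told apart in these counts.

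The annotated start sites of the hosts were compared with all promoters in the RefSeq table (GRCh38.p14), where 26 of the 30 have an entry. At the start base, a run of at least 4 pyrimidines that begins with C, as in a TOP tract, was present in 9 of 26 hosts (34.6%) and in 5.45% of all 35116 promoters. The letters TATAA, searched on the gene's strand at 40 to 21 bases before the start, were present in 6 hosts (23.1%) and in 3.77% of all promoters. Both together were found in 5 hosts (19.2%), SNHG5, SNHG7, SNHG12, SNHG19 and ZFAS1, and in 46 of all promoters (0.131%). CACGTG, the E-box that MYC family proteins bind, was in the 300 bases of 2 hosts (7.69%) and in 7.26% of all promoters. The 6 hosts with TATAA are shown from 40 bases before the start; the first capitals are TATAA and the second, where present, the pyrimidine run at the start.
ZFAS1: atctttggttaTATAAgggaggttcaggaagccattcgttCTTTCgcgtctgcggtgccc
SNHG5: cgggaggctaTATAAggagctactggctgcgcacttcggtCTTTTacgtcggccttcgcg
SNHG12: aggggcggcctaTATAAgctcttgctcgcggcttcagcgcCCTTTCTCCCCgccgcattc
SNHG19: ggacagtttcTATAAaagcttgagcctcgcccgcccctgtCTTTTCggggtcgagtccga
SNHG7: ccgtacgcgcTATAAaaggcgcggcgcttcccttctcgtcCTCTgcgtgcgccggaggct
SNHG8: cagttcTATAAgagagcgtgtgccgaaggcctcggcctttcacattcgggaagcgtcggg
In GRCh38.p14 these stretches are chr20:49278602-49278661 (plus strand) for ZFAS1, chr6:85678714-85678773 (minus) for SNHG5, chr1:28581854-28581913 (minus) for SNHG12, chr16:2155339-2155398 (minus) for SNHG19, chr9:136728165-136728224 (minus) for SNHG7 and chr4:118278722-118278781 (plus) for SNHG8. Of these 6 hosts, 5 rose in Flp-In and SNHG7 did not pass, while in AsiSI SNHG5 and SNHG8 rose and SNHG7 fell. Of the 20 hosts without TATAA, 8 rose and 3 fell in Flp-In, and 5 rose and 2 fell in AsiSI. SNHG12, which carries both H/ACA and C/D snoRNAs, had 14.6 and 13.7 CPM in Flp-In siNC against 24.4 and 17.97 CPM in Flp-In siMePCE (log2 0.58, adjusted p = 0.00300).

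The genes around the hosts were described by lists. Of 29 protein-coding snoRNA hosts, mostly ribosomal protein and translation factor genes, 15 rose and 4 fell in Flp-In (median log2 fold change 0.24) and 9 rose and 8 fell in AsiSI (median 0.10). The row of RCC1, whose interval covers that of SNHG3 on the same strand, rose by 1.32 and 0.81. In Flp-In it had 193 and 225 CPM under siNC and 563 and 480 CPM under siMePCE. The SNHG3 row had 142 and 169.9 against 519.7 and 443 CPM there. In AsiSI RCC1 had 256 and 312 against 496 and 500 CPM, and SNHG3 199 and 249 against 452 and 464 CPM. The call of RCC1, counted among the 15 and 9, is therefore not separate from that of SNHG3. WDR43, a ribosome biogenesis factor, rose by 0.67 in Flp-In. PRRC2A fell by 1.06 and 1.11, and HSPA8, the constitutive heat shock chaperone, fell by 0.50 and 0.67, both on the log2 scale. Where the SNHG, GAS5 and ZFAS1 hosts fell in 3 of 30 in AsiSI, these protein-coding hosts fell in 8 of 29. The lists were not tested against each other.

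Of the 8 proteins bound to mature snoRNAs, 4 rose and the other 4 did not pass in Flp-In, and 3 rose and 2 fell in AsiSI. The C/D methyltransferase FBL rose by 0.71 in Flp-In and 0.33 in AsiSI, the C/D protein SNU13 by 0.78 and 0.31, and the H/ACA protein NOP10 by 0.80 and 0.39. DKC1, the H/ACA pseudouridine synthase, had a log2 fold change of -0.05 in Flp-In (adjusted p = 0.721) and fell by 0.64 in AsiSI (adjusted p = 1.68e-05), with a called difference of -0.59. Among 10 assembly factors, 6 rose and 3 fell in Flp-In and 3 rose and 4 fell in AsiSI. NUFIP1, which brings the C/D core together, rose by 0.95 in Flp-In and had 0.17 in AsiSI (adjusted p = 0.289), ZNHIT6 rose by 0.80 and 0.34, and the H/ACA chaperone SHQ1 by 0.68 and 0.35. PIH1D1 of the R2TP chaperone complex fell by 1.44 and 1.51.

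Of 14 nonsense-mediated decay factors, 3 rose and 4 fell in Flp-In, and in AsiSI 6 fell and the other 8 did not pass. SMG5, SMG9 and UPF3A fell in both lines, by 0.29 and 0.58, by 0.40 and 0.75, and by 0.52 and 0.81. CASC3, of the exon junction complex, rose by 0.62 in Flp-In and had a log2 fold change of -0.10 in AsiSI. Of 8 intron debranching and exonuclease genes, 3 rose and 1 fell in Flp-In, and 1 fell in AsiSI. The nuclear exosome helicase MTREX and the exosome nuclease DIS3 rose in Flp-In by 0.44 and 0.48 and XRN2 by 0.28, while the exosome nuclease EXOSC10 fell by 0.51 and 0.61. Of 6 regulators of TOP mRNA translation, MTOR (-0.71 and -0.76), LARP1 (-0.40 and -0.59) and EIF4EBP2 (-0.75 and -0.88) fell in both lines, and EIF4EBP1 rose in Flp-In by 0.31. For these lists the same shares of all genes apply as given for the hosts. NOP56 and DKC1 stand in both the core protein and the protein-coding host list.

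**Figure D4:**
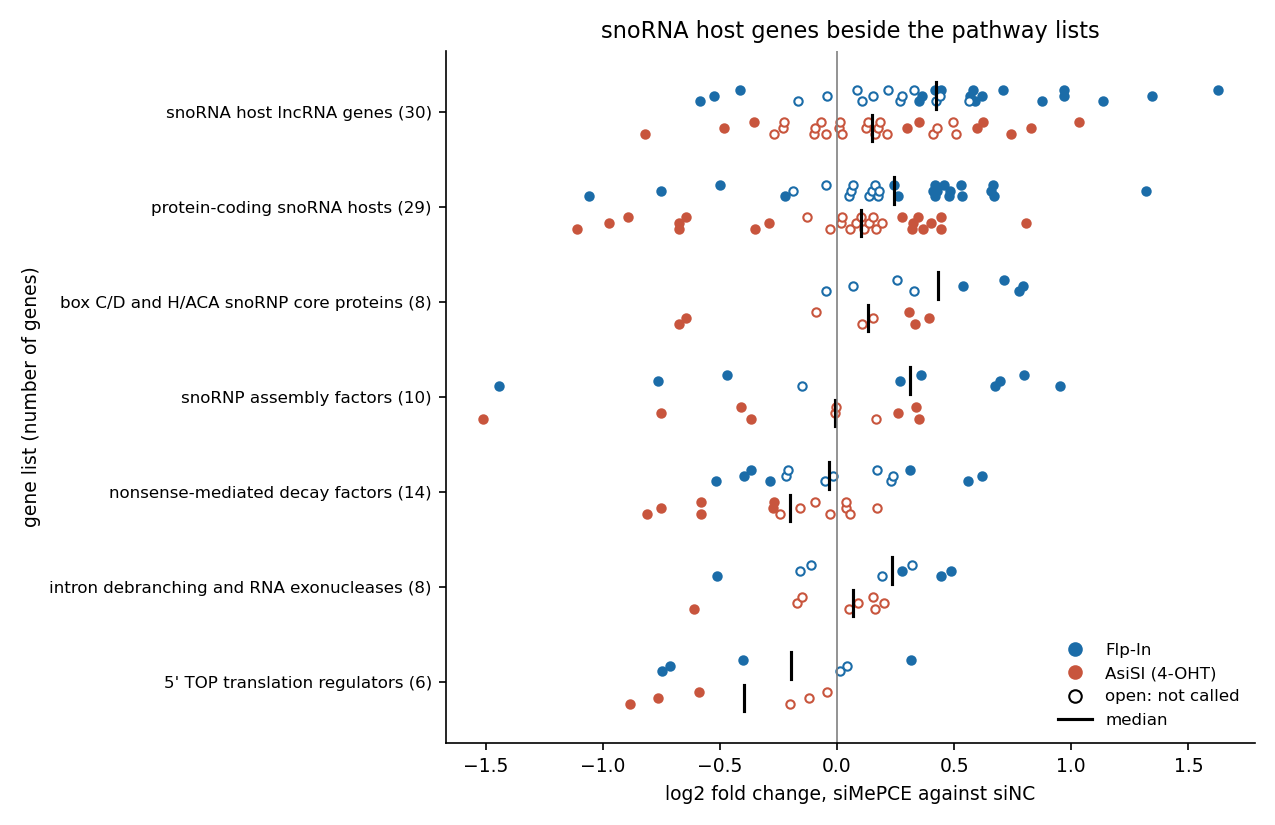
Log2 fold change (siMePCE against siNC) of the 30 host genes and of 6 lists of related genes in Flp-In (blue) and AsiSI with 4-OHT (red); each point is a gene, open points were not called, and bars are medians. The host genes have medians of 0.42 and 0.15, and the TOP regulators -0.19 and -0.40.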

How the data were processed

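Total RNA of 8 libraries was sequenced with a directional kit after ribosomal RNA removal, per the labels' protocols. The deposited values are raw read counts per gene over whole hg19 gene intervals; Trim Galore, FastQC, STAR, SAMtools and featureCounts are named in the submitters' processing notes, and the strand and overlap settings are not given in the sources used here. Genes passing filterByExpr by group (43321 of 80311) were scaled by TMM and fitted over all 8 libraries with edgeR 4.0.16 (R 4.3.3, robust quasi-likelihood test, 4 group means, common biological coefficient of variation 0.121). P-values were adjusted by Benjamini and Hochberg over all genes tested, a gene was called at an adjusted p under 0.05, and SE is the log2 fold change divided by the root of F. The scripts were tested on simulated data. DESeq2 1.42.0, other scaling and filters, a replicate block, single libraries left out and nested rows subtracted were alternatives. The members and lists were chosen with earlier results of these data known. Named were GAS5, ZFAS1, SNHG1, the 5 most abundant members, the 5 largest called rises and falls per contrast at a mean of at least 5 CPM, up to 4 genes per list by adjusted p, and 10 nested snoRNAs by share of the host; other genes were named after their values were seen.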

Additional observations from a re-analysis of the deposited data

Results flagged for a closer look

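A test of AsiSI minus Flp-In (edgeR, log2 scale) called 4 host genes for a response to siMePCE that was not the same in the 2 lines. SNHG17 differed by -0.84, SNHG3 by -0.59, SNHG16 by -0.43 and SNHG14 by -0.40. In all 4 the response was smaller in AsiSI with 4-OHT, where the cell line and the 4-OHT treatment cannot be told apart.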

How the results depend on the processing

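Of the values of the 19 named hosts under alternatives, 1264 kept their side of the threshold, 42 of them with a changed sign while not called, 35 gained the call, 49 lost it and 1 reversed. The reversal was SNHG32, whose difference between the lines became -0.67 when all nested rows were subtracted (chosen after seeing the data). GAS5 rose in Flp-In under a filter of at least 1 CPM in 2 libraries (adjusted p = 0.017), with only the libraries compared (0.00765) and with the replicate block (0.0276). That CPM filter gave 11 hosts higher in AsiSI in place of 7. A larger response in AsiSI was called in 1 host in place of 0 under the DESeq2 Wald test and the replicate block (SNHG26, adjusted p = 0.0437 and 0.044) and with no filter (SNHG32, adjusted p = 0.0264).

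Replicate numbers 1 and 2 recur in all groups, but 2 numbers do not show a pairing. For each gene, the deviation of replicate 1 from its group mean (log2 CPM) was compared between groups. These deviations, not the libraries' whole profiles, correlated only at 0.0415 to 0.239 over 26439 genes. With the replicate block, genes called with a smaller response in AsiSI went from 785 to 1431 and hosts from 4 to 7. Block counts of hosts higher and lower were 16 and 3 in Flp-In, 10 and 3 in AsiSI, and 6 and 7 between the lines under siNC.

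With single libraries left out, the lone library of that group is assumed to vary like the others. Hosts called lower in Flp-In then numbered 1 to 3, hosts called higher in AsiSI 4 to 10, hosts with a smaller response in AsiSI 1 to 4, hosts with a larger response 0 to 1, and hosts lower in AsiSI under siNC 3 to 6. Over all genes, 4940 to 8076 were higher in Flp-In, 515 to 1166 had a larger and 218 to 855 a smaller difference, and 4106 to 6965 were lower in AsiSI under siNC. Using only the libraries compared could not be run for the difference, which needs all 8. The cause of these changes was not tested. Depth limits the 5 hosts under 5 CPM and most snoRNA rows.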
